A study of Mus musculus with 4 samples.

Results

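Prostaglandin enzymes and receptors were described in 4 clonal cell lines from a spontaneous mammary tumor of a female FVB/N-Tg(MMTVneu) mouse. In this strain a viral promoter active in mammary cells (MMTV) drives neu, the rat form of ErbB2. The set holds 10 genes named for the synthesis, breakdown or sensing of prostaglandins, of 19938 genes that have a probe set of their own on the array. Ptges was chosen by its measured level, because it was high in M2 alone, and the other 9 genes were added by name. Of the 10 genes, 9 have a probe set in the annotation used, 1 each, and Ptgs1 is not listed under its name and was not analysed here. RNA was measured on Affymetrix MoGene 1.0 ST arrays with a single array per line. E1 and E2 are epithelial clones sorted for high CD24 and high neu and cultured in RPMI with 20% serum. M1 and M2 are mesenchymal-like clones sorted for low CD24 and low neu and cultured in MEGM, a mammary growth medium, with 2% serum, insulin, hydrocortisone, pituitary extract and EGF. Each line is 1 clone, all 4 carry the transgene, and the effects of type and of medium cannot be told apart. In the mammary fat pad E1, E2 and M2 formed tumor and M1 did not.

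Prostaglandins are lipid signals made from arachidonic acid, which phospholipases A2 release from membranes. The cyclooxygenases Ptgs1 and Ptgs2 turn it into prostaglandin H2, and terminal synthases convert this to a single product, for which Ptges and Ptges2 give prostaglandin E2 (PGE2) and Ptgis gives prostacyclin. PGE2 acts through the receptors EP1 to EP4, encoded by Ptger1 to Ptger4, and Hpgd inactivates it after uptake into the cell. Ptgs2 (COX-2) and Ptges are the inducible members of the PGE2 route, and glucocorticoids such as hydrocortisone are known to repress both in many cells.

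Only Ptgs2 and Ptges, among the 9 genes measured, were 2-fold or more apart between any of the 4 lines, and they differed in which line was highest. Ptges was high in M2 and low in E1, E2 and M1, while Ptgs2 was high in both M1 and M2, and highest in M1. The other 7 genes stayed within a 2-fold range, which held for 81.8% of all 23410 probe sets with a gene symbol. The values are the authors' normalized log2 levels, so that 1 unit is a 2-fold difference. The median of all probe sets was 6.76, 6.75, 6.75 and 6.85 in E1, E2, M1 and M2, where background lies on this scale is not known, and levels of different genes were not set against each other. In RNA of whole cultures, fewer cells that express a gene and less RNA per cell cannot be told apart.

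The epithelial label was borne out by Epcam, at 12.70 (E1), 12.76 (E2), 5.77 (M1) and 5.46 (M2), and the mesenchymal label by Twist1, at 6.29, 6.24, 9.27 and 9.99. Of 10 epithelial markers 5 were higher in the E lines by limma and of 10 mesenchymal markers 6 were lower, where 2.02% of all 23410 probe sets were higher and 1.72% lower, while Krt8, Krt18, Vim and Fn1 were high in all 4 lines. Among leukocyte markers, Ptprc lay between 5.51 and 5.88 and Fcgr3 between 6.28 and 6.46 in the 4 lines, although Cd68 and Cd14 reached 11.60 and 10.91. Among endothelial markers, Pecam1 lay between 5.74 and 5.90, and Cdh5 was at 5.99, 6.15, 7.58 and 6.72 (limma adjusted p = 0.216). limma called 0 of 10 leukocyte, 0 of 6 endothelial and 0 of 7 fibroblast markers between the types. At an unadjusted p under 0.05 there were 0, 1 and 1, against 18.0% of all probe sets. The fibroblast markers Dcn, at 5.49, 5.62, 10.08 and 5.74, and Pdgfrb, at 5.86, 6.03, 9.51 and 5.92, were high in M1 alone, while Pdgfra, at 7.78, 7.83, 8.71 and 10.20, was highest in M2. Of 5 mast cell markers 1 was called, Kit, at 11.37, 11.69, 5.75 and 6.01, and the other 4 were at or below 6.56 in every line. The part of other cell types in the prostaglandin levels was not tested beyond these values.

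The sequence before the transcription start is shown for the pair of genes whose levels differed between lines. Both sequences are from RefSeq (GRCm38.p6), cover 250 bases before the listed start and run 5′ to 3′ on the gene's strand. Capitals mark matches to the GC box GGGCGG and to TGTTCT, which is only part of a glucocorticoid response element. Both were searched on both strands, and TGTTCT shows as AGAACA when it lies on the opposite strand. The window of Ptges is at chr2:30903298-30903547, minus strand, inside the span of a longer RefSeq transcript, and that of Ptgs2 at chr1:150099781-150100030, plus strand.

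Ptges: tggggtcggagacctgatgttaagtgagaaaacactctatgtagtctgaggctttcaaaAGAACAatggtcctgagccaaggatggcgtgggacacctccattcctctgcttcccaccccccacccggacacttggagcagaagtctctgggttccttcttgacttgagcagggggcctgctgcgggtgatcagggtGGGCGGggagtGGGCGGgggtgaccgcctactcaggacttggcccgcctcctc

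Ptgs2: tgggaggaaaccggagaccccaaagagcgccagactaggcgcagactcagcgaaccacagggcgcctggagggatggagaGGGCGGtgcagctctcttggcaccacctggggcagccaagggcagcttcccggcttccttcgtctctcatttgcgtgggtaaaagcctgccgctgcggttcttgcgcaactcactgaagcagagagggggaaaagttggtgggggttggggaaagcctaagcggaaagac

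The Ptges window holds 2 GC boxes, beginning 53 and 42 bases before the start. It also holds 1 match to TGTTCT that begins 191 bases before the start. The Ptgs2 window holds 1 GC box, 170 bases before the start. A GC box was found in 32.7% of 32851 RefSeq windows of this length and TGTTCT in 16.1%. The full glucocorticoid response element was not searched. The TATA box TATAAA and the full cyclic AMP response element TGACGTCA, in 12.4% and 1.55% of windows, had no match in either sequence. Bases after the listed start were not searched, and whether these cells begin transcription at that start is not known. The lack of a match therefore holds for these windows and does not show that either promoter lacks such a site. These are matches of letters alone, and no binding was measured.

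Ptges encodes the inducible microsomal synthase that makes PGE2. E1 and E2 were at 6.62 and 6.79, M1 at 7.17 and M2 at 11.81. The first 3 lines lay together at 6.86 ± 0.28 (SD, n = 3) and M2 stood 4.64 above the highest of them, a 24.9-fold ratio of the listed values to M1. E1 lay below the median of its array, E2 and M1 above theirs, and the background is unknown, so that the ratio of transcripts cannot be read from this fold. This pattern is what chose the gene, and it carries no test. By the same measure, M2 minus the highest other line, Ptges ranked 5 of 23410 probe sets, and M2 was at least 2-fold above each other line in 1.31% of them. None of the 8 other members measured had M2 at least 2-fold above each other line.

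**Figure D1:**
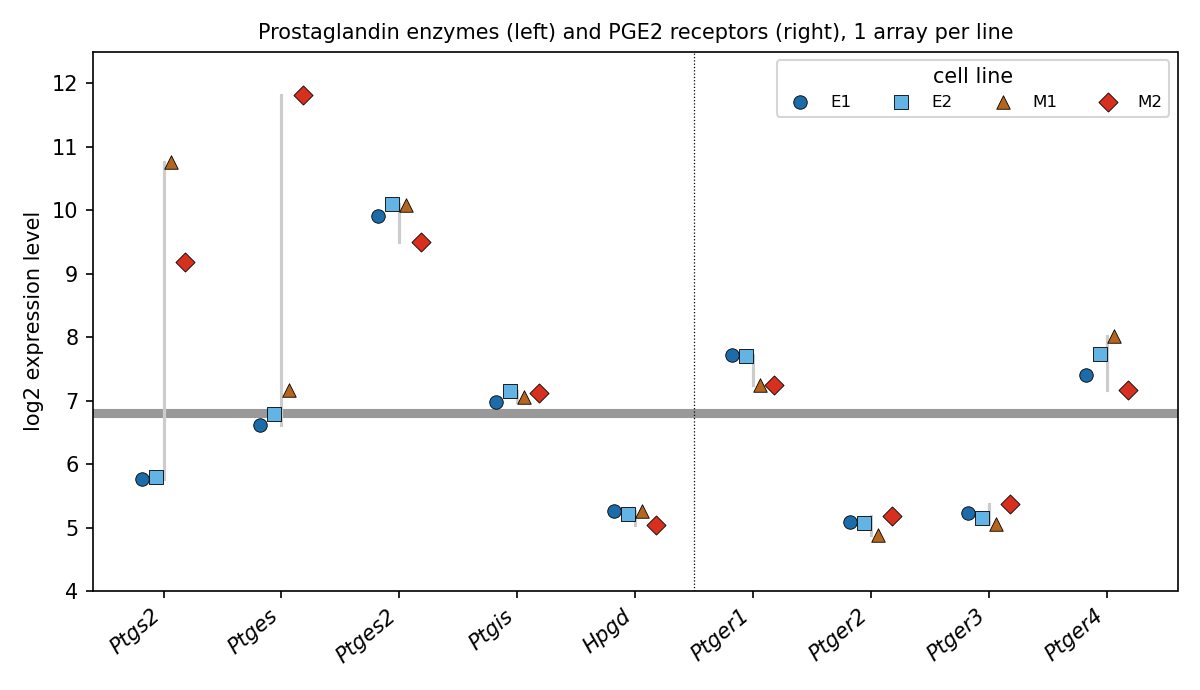
Log2 expression of the 9 measured members in E1, E2, M1 and M2 (points, 1 array per line), enzymes to the left of the dotted line and PGE2 receptors to the right; vertical grey lines span the 4 lines and the grey band holds the medians of the 4 arrays, from 6.75 to 6.85. Ptges is high in M2 alone, at 11.81, and Ptgs2 in M1 and M2, at 10.76 and 9.18.

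Ptgs2 encodes COX-2, the inducible cyclooxygenase. E1 and E2 were at 5.77 and 5.80, M1 at 10.76 and M2 at 9.18. Both mesenchymal-like lines lay far above both epithelial lines, which were below the median of their arrays and 0.03 apart. The mean log2 level was 4.19 higher in M1 and M2 than in E1 and E2 (standard error 0.57, 95% interval 2.60 to 5.78), an 18.2-fold ratio of the listed values, but by limma with adjustment over all probe sets it did not pass the threshold of 0.05 (adjusted p = 0.0505). With both E lines at a low level and the background unknown, the ratio of transcripts cannot be read from this fold either. The adjusted p was 0.0401 after quantile normalization and 0.0359 with an intensity trend, both past the threshold. With the highest probe set of each gene it was 0.0496, also past it. The adjusted p did not pass with median centring (0.0586), all probe sets of the file (0.0796), the clone number as a block (0.117) or a floor (0.344). It was 0.00344 without M1 and 0.00285 without M2, where the remaining M line is assumed to vary as little as E1 and E2 and the distance between M1 and M2 is left out, so that these values do not show that the call is stable. It was 0.294 without E1 and 0.299 without E2, where limma called 0 of all probe sets (2579 and 2651 at an unadjusted p under 0.05). M1 was 1.58 above M2, a 2.99-fold ratio between single arrays with no test.

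COX-2 makes the substrate of the Ptges enzyme. In M2 the listed levels of both genes were at least 2-fold above those of E1 and E2. That no other line had both follows from how Ptges was chosen. M1 had the higher Ptgs2, at 10.76 against 9.18, and the lower Ptges, at 7.17 against 11.81. Between M1 and M2 these 2 members alone differed by 2-fold or more, 1 in each direction, where 3.22% of all probe sets were at least 2-fold higher in M1 and 2.64% in M2. The Ptges difference was used in choosing the gene. M1 was at least 2-fold above each of the other lines for Ptgs2 alone of the members, and for 1.53% of all probe sets. Between E1 and E2 no member was 2-fold apart, against 2.24% of all probe sets.

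**Figure D2:**
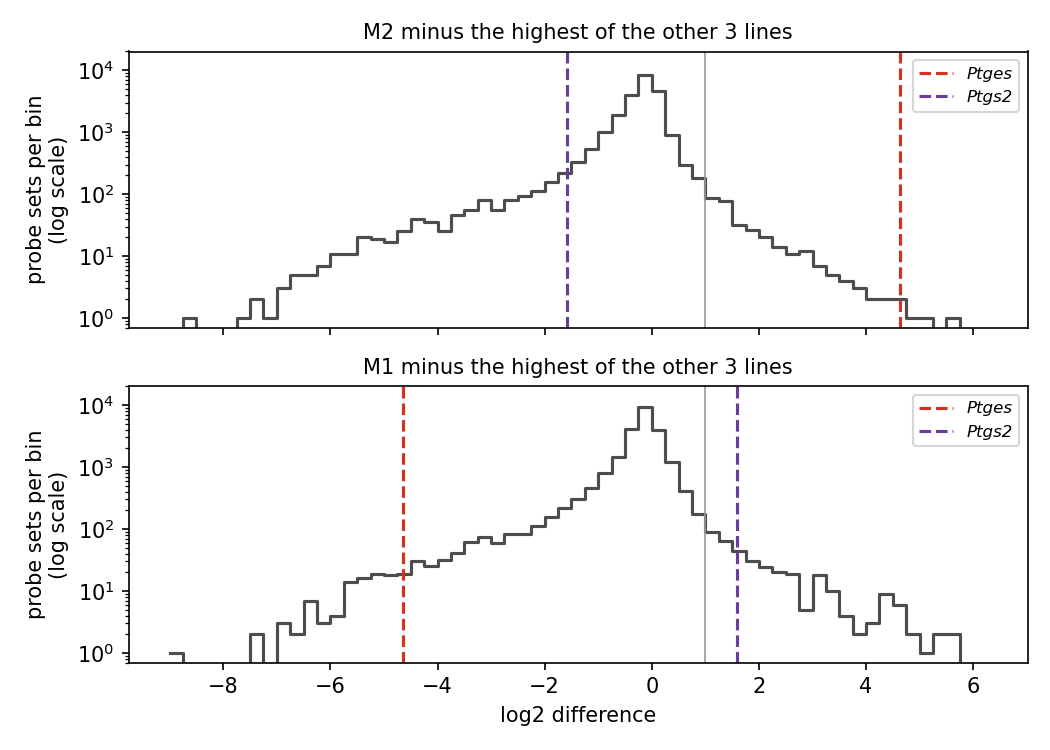
Number of probe sets with a gene symbol (log axis, bins of 0.25) by the log2 difference of M2 (top) and M1 (bottom) from the highest of the other 3 lines; dashed lines mark Ptges and Ptgs2 and the grey line a 2-fold difference. Ptges lies at 4.64 for M2, a value that chose it, and Ptgs2 at 1.58 for M1.

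The remaining enzymes were nearly level. Ptges2, a PGE2 synthase of the Golgi membrane and cytosol, was at 9.90, 10.10, 10.08 and 9.50 in E1, E2, M1 and M2. M2 was the lowest line, 0.40 below the next, whereas for Ptges it was the highest. Ptgis, the prostacyclin synthase, was at 6.98, 7.15, 7.06 and 7.12, a range no wider than the distance of E1 from E2. Hpgd, which starts the inactivation of prostaglandins, was at 5.26, 5.21, 5.26 and 5.03, below the array median in all 4 lines, so that a difference at this level may not be detectable. The log2 difference of the E lines from the M lines was 0.21 for Ptges2 (95% interval -0.46 to 0.88), -0.03 for Ptgis (-0.36 to 0.31) and 0.09 for Hpgd (-0.27 to 0.45), and none passed by limma (adjusted p = 0.769, 0.961 and 0.822).

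The PGE2 receptors differed little between lines. Ptger1 encodes EP1, which raises calcium, and was at 7.72 and 7.70 in the E lines and at 7.25 and 7.25 in the M lines. Its mean was 0.46 higher in the E lines (standard error 0.10), but limma did not call it (adjusted p = 0.126). Ptger4 encodes EP4, which raises cyclic AMP, and was at 7.41, 7.74, 8.02 and 7.17 in E1, E2, M1 and M2. M1 was the highest line and M2 the lowest, 0.85 apart, with the epithelial lines between them. Its difference between the types was -0.02 with a wide interval, -0.97 to 0.93 (limma adjusted p = 0.989). Ptger2, encoding EP2, which also raises cyclic AMP, lay between 4.88 in M1 and 5.19 in M2, and Ptger3, encoding EP3, which lowers it, between 5.06 in M1 and 5.37 in M2. Both were below the array median in all 4 lines, with differences between the types of 0.05 and -0.02 (limma adjusted p = 0.937 and 0.976).

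**Figure D3:**
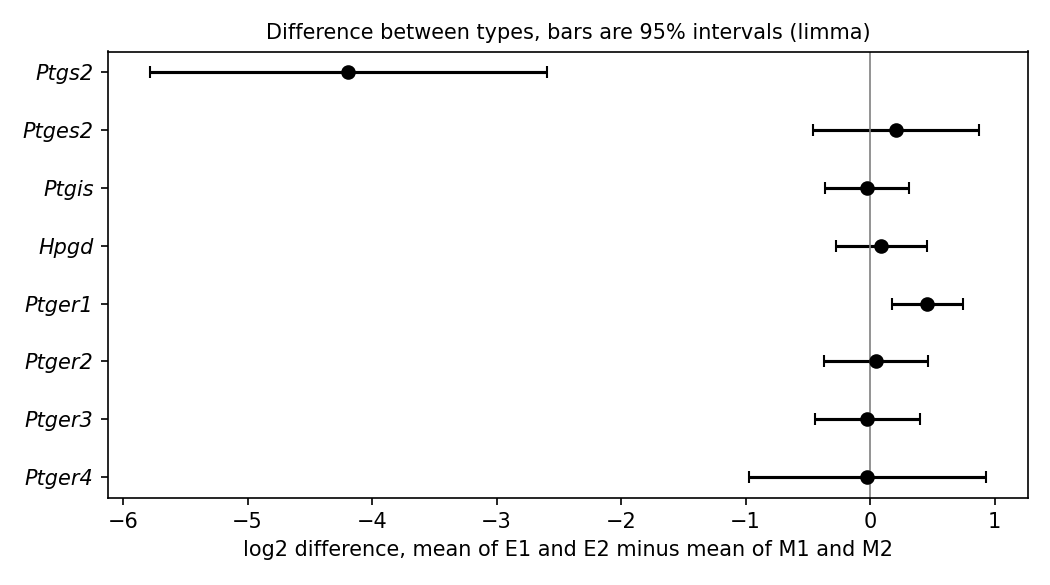
Log2 difference of the mean of E1 and E2 from the mean of M1 and M2 for the 8 members that were not chosen by their level, with 95% intervals from limma, not adjusted for the number of probe sets. Ptgs2 lies at -4.19 and Ptger1 at 0.46, and the other 6 intervals include 0.

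In all, limma called 0 of the 8 members tested between the types. By the same fit 2.02% of the 23410 probe sets were called higher and 1.72% lower in the E lines. At an unadjusted p under 0.05 the members were Ptgs2 and Ptger1, 2 of 8, and the share of all probe sets was 18.0%. Labels do not say that any line was cultured more than once, so these p-values measure the spread between clones.

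Phospholipases A2, which supply the substrate, had 18 of 20 listed genes measured. By limma 0 were higher and 0 lower in the E lines, against 2.02% and 1.72% of all probe sets. Where 18.0% of all probe sets had an unadjusted p under 0.05, so did 3 of these 18 genes. Their median difference between the types was -0.09, beside -0.00 for all probe sets. Pla2g4a, the cytosolic enzyme that releases arachidonic acid, was at 11.17, 10.26, 11.70 and 11.42 in E1, E2, M1 and M2, and it is named outside the rule for its role. Pla2g7, which hydrolyses platelet-activating factor, had the largest difference of the list, at 12.26 and 12.26 in the E lines, 7.53 in M1 and 4.86 in M2 (limma adjusted p = 0.0662). Pla2g15, a lysosomal phospholipase, went the other way, at 7.59, 8.38, 9.75 and 9.60 (limma adjusted p = 0.0850), as did the secreted Pla2g2e, at 7.23, 7.15, 9.19 and 8.30 (limma adjusted p = 0.119). The secreted phospholipases Pla2g5 and Pla2g1b were highest in M2. Pla2g5 was at 6.41, 6.53, 6.81 and 9.48, and Pla2g1b at 7.82, 7.96, 8.47 and 9.95. They were the 2 of 18 with M2 at least 2-fold above each other line, against 1.31% of all probe sets.

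Of the other terminal synthases, 5 of 7 genes were measured and 0 were called by limma. At an unadjusted p under 0.05 there were 3 of 7 probe sets, against 18.0% of all probe sets. These belong to Ptgds and Ptges3 alone, and Ptges3 is counted more than once. Ptgds, a prostaglandin D2 synthase, was at 11.70 and 10.14 in the E lines and at 7.71 and 8.34 in the M lines (difference 2.90, limma adjusted p = 0.115). The 3 probe sets of Ptges3, a cochaperone that also has PGE2 synthase activity, were between 0.28 and 0.38 higher in the E lines. Cbr1, a carbonyl reductase that can reduce PGE2, was at 7.83, 8.05, 7.06 and 9.10, lowest in M1 and highest in M2.

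Receptors of the other prostanoids and the regulator Ptgfrn gave 6 of 7 symbols measured, and 0 were called by limma. At an unadjusted p under 0.05 there was 1, against 18.0% of all probe sets. The absolute difference between the types was at most 0.14 in Ptgdr, Ptgdr2, Ptgfr, Ptgir and Tbxa2r. Ptgfrn, a membrane protein known to inhibit binding to the prostaglandin F receptor, was at 10.47, 10.30, 7.45 and 9.19 (difference 2.06, limma adjusted p = 0.216), with M1 the lowest line.

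Transport and inactivation genes were all measured, 7 of 7, and limma called 0. At an unadjusted p under 0.05 there were 2, against 18.0% of all probe sets. Abcc4, which exports PGE2, was at 6.83 and 8.71 in the E lines and at 11.10 and 10.33 in the M lines (difference -2.95, limma adjusted p = 0.153). Ptgr1, a prostaglandin reductase, was at 6.57, 6.96, 8.51 and 7.74 (limma adjusted p = 0.144). Slco3a1 was at 10.83, 10.50, 11.91 and 10.88, and Cbr3 between 5.31 and 5.47 outside M1, with M1 highest in both. Slco2a1, the main uptake carrier of PGE2, was at 12.74, 12.47, 11.70 and 13.34, and was named after its values were seen. It and Cbr1 were the 2 genes of the list at least 2-fold higher in M2 than in M1, against 2.64% of all probe sets. Cbr3 and Slco3a1 were the 2 at least 2-fold higher in M1 than in M2, against 3.22%.

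**Figure D4:**
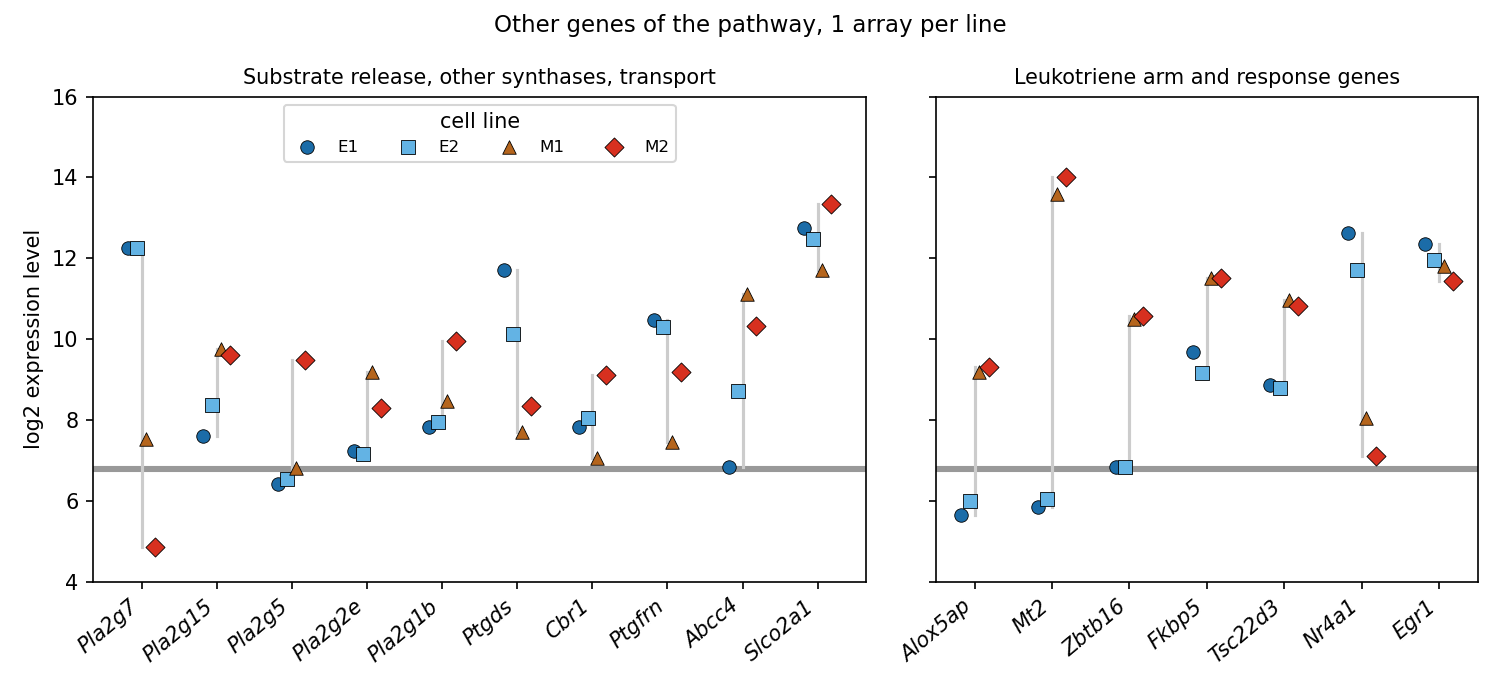
Log2 expression of 17 genes of the other lists in E1, E2, M1 and M2 (points, 1 array per line). Genes of substrate release, other synthases and transport are on the left. On the right are Alox5ap, the inducer Egr1 and genes that respond to glucocorticoids or cyclic AMP. Vertical grey lines span the 4 lines and the grey band holds the array medians. Pla2g5 is high in M2 alone, at 9.48, and Mt2 and Zbtb16 are high in both M1 and M2.

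Cytokines and factors that are known to induce Ptgs2 and Ptges gave no call by limma for 10 of 12 genes measured. At an unadjusted p under 0.05 there was 1, against 18.0% of all probe sets. Il1b lay between 5.27 and 5.61 and Tnf between 5.74 and 6.19 in the 4 lines, both named outside the rule for their role. Egr1, a factor that binds GC-rich sites, was at 12.36, 11.95, 11.80 and 11.44, lowest in M2. Il1rn, the interleukin 1 receptor antagonist, was at 8.46, 8.50, 8.25 and 7.01, and Il1rap, a coreceptor of interleukin 1, at 11.34, 11.23, 10.01 and 10.76 (limma adjusted p = 0.461 and 0.234). Nfkbia, the inhibitor of NF-kappa B, was at 10.01, 10.66, 10.59 and 10.83.

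Glucocorticoid response genes, measured because the medium of the M lines held hydrocortisone, were 12 of 12 on the array. By limma 4 were higher in M1 and M2 and 0 lower, against 1.72% and 2.02% of all probe sets, and the median difference of the list was -1.53, E minus M, beside -0.00 for all probe sets. Mt2, a metallothionein, was at 5.85 and 6.05 in the E lines and at 13.59 and 14.02 in the M lines (limma adjusted p = 0.00252). Zbtb16 was at 6.83, 6.83, 10.48 and 10.56 (limma adjusted p = 0.00272), and Fkbp5 and Tsc22d3 were 2.09 and 2.06 higher in the M lines (limma adjusted p = 0.0275 and 0.00709). Mt1, at 11.13 and 7.73 in the E lines and 12.93 and 13.41 in the M lines, did not pass (limma adjusted p = 0.242). The receptor Nr3c1 lay between 9.65 and 9.86, and Sgk1 and Cebpd had differences of 0.23 and 0.32, E minus M, that did not pass. The 4 genes called were high in both M1 and M2, as was the level of Ptgs2, while Ptges was low in M1, and the part of hydrocortisone in either gene was not tested.

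Cyclic AMP response genes, which EP2 and EP4 can induce, had 8 of 9 genes measured with 10 probe sets. Of these, limma called 1 higher in the E lines and 0 lower, against 2.02% and 1.72% of all probe sets. This was the nuclear receptor Nr4a1, at 12.62 (E1), 11.70 (E2), 8.06 (M1) and 7.10 (M2) (limma adjusted p = 0.0281). The kinase Sik1 was at 10.65, 10.32, 11.61 and 11.64 and did not pass (limma adjusted p = 0.0518). Fos was at 11.70, 9.77, 9.89 and 9.47, apart in E1. The 3 probe sets of the phosphodiesterase Pde4d did not point the same way, with differences of -0.95, -0.56 and 0.18.

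The genes whose levels followed those of Ptges most closely were found by the root mean square difference of log2 levels centred over the 4 lines. They were Lilr4b (0.09), Podxl (0.20), Cdh13 (0.20), Dnph1 (0.23) and Inmt (0.29). Podxl, a sialomucin of the cell surface, was at 5.96, 6.01, 5.99 and 10.86, and Cdh13, a cadherin anchored by a lipid, at 6.47 to 6.83 and 11.97. Lilr4b, a receptor known from leukocytes, was at 4.61 and 4.86 in the E lines and 9.75 in M2. With 4 arrays, any gene high in M2 alone by a like amount scores as close, and no test was made.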

How the data were processed

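Total RNA of E1, E2, M1 and M2 was hybridised by the authors to Affymetrix MoGene 1.0 ST arrays, 1 per line. The deposited values are log2 expression levels normalized by the authors. The labels name Partek for the processing, and the method of background correction, normalization and summarization is not given in the sources used here. Of 35556 probe sets, 23410 had a gene symbol in the platform's annotation, 21789 of them a single symbol, which were used for named genes. Member symbols were matched through gene identifiers to RefSeq (GRCm38.p6), and 7 of the 9 measured members have a promoter there.

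E1 and E2 were compared with M1 and M2 by limma 3.58.1 (R 4.3.3; lmFit, eBayes, 2 residual degrees of freedom) on all 23410 probe sets, without rescaling, with Benjamini-Hochberg adjustment over all of them and a threshold of 0.05. Single arrays were compared by a difference of 2-fold, with no test. The fit was tested on simulated data for this comparison, where of 50 changed probe sets each among 23410 it recovered 9, 28, 39 and 45 when the log2 change was 1, 2, 4 and 8, and called 6 unchanged ones. The number of arrays limits the precision.

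The members and lists were chosen with earlier results of these data known. Genes named are all members, up to 4 per pathway list with the largest difference between the types, those in these lists with M2 at least 2-fold above each other line and the 5 closest to Ptges. Cell type markers, and Tsc22d3, Nr3c1, Sgk1, Cebpd, Ptgdr and Ptgdr2, were named outside this rule after their values were seen, and others are marked in the text. Alternatives were quantile normalization, median centring, a filter on dim probe sets, a floor, an intensity trend, all probe sets, the highest probe set of a gene, the clone number as a block and leaving out each line.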

Additional observations from a re-analysis of the deposited data

How the results depend on the processing

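limma called 0 of the 8 members tested. It called 1, Ptgs2, with quantile normalization, with the intensity trend and with the highest probe set of each gene. The filter on dim probe sets, by mean level, kept only Ptgs2, Ptger4 and Ptges2 of these members, and Ptgs2 was called there too. Ptgs2 passed this filter through its level in M1 and M2, so that its call there adds no support. With values raised to the median of the file limma also called 1, Ptger1 (adjusted p = 0.0200), while Ptgs2 had an adjusted p = 0.344. Values below this floor lose their spread, as in Ptger2, Ptger3 and Hpgd (standard error 0.000726). The standard error of Ptger1 fell from 0.10 to 0.0074 at the same difference of 0.46, and its call rests on that fall. Over Ptgs2's alternatives the adjusted p ran from 0.00285 to 0.344, and the direction was the same in each; the lowest values, without M1 or M2, leave out the distance between these lines. When a line was left out the count of members called ran from 0 to 1, the count in the pathway lists from 0 to 14 beside 6, and the count over all probe sets from 0 to 1879 beside 874, with 0 in all 3 without E1 or E2. With the floor limma called 223 probe sets. The lines' numbers name clones and pair nothing by the labels; with the clone number as a replicate block limma called 319 probe sets, 5 in the lists and 0 members (adjusted p = 0.117 for Ptgs2). M2 exceeded the next line in Ptges by 4.54 to 4.64 under each scaling, and 2 members were 2-fold apart between M1 and M2 under each. No depth is defined for arrays, and low levels have an unknown background.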

Other observations

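The leukotriene arm of arachidonic acid metabolism, which starts with lipoxygenases in place of cyclooxygenases, had 13 of 14 listed genes measured. By limma 1 was lower in the E lines and 0 higher, against 1.72% and 2.02% of all probe sets. This was Alox5ap, which presents arachidonic acid to 5-lipoxygenase, with the E lines 3.41 below M1 and M2, which were at 9.19 and 9.30 (limma adjusted p = 0.00494). Its partner Alox5, named outside the rule for its role, lay between 6.14 and 6.41 in the 4 lines, below the median of each array. Ltc4s, a leukotriene C4 synthase, was at 7.70, 7.96, 7.73 and 6.79, and Aloxe3 at 8.06, 7.32, 7.57 and 7.14. Lta4h, which makes leukotriene B4, was at 9.98, 9.94, 10.08 and 10.46.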
